A study of Mus musculus with 14 samples.

Results

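The 8 enzymes described here make bile acids from cholesterol in the hepatocyte: Cyp7a1, Hsd3b7, Cyp8b1 and Akr1d1 of the classic pathway, Cyp27a1 and Cyp7b1 of the alternative pathway, and Slc27a5 and Baat of conjugation. They were taken as a fixed list of names from the pathway, and all 8 of 8 were found among 30462 features in a table of RNA sequencing counts from mouse liver. All 8 also passed the filter on low counts, which left 12307 features. The 14 samples came from male C3HeB/FeJ mice labelled 18 months old, an inbred line prone to liver cancer without any carcinogen. There were 4 normal livers (Normal 1 to 4), 6 tumours marked Grow (Grow 1 to 6) and 4 tumours marked Regress (Regress 1 to 4), and the labels do not say how growth or regression was scored.

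Injections were given on 5 days of each 28-day cycle for 6 cycles. All 4 normal livers received phosphate citrate buffer. In the Grow group, tumours 1 and 5 received DMSO, a solvent, tumour 6 received SAHA (suberoylanilide hydroxamic acid, a histone deacetylase inhibitor) at 100 mg/kg, and tumours 2, 3 and 4 received SAHA at 85 mg/kg together with TMZ (temozolomide, a DNA alkylating drug) at 22 mg/kg. In the Regress group, tumours 1 and 3 received TMZ at 31 mg/kg, tumour 2 received buffer and tumour 4 received DMSO. TMZ had thus been given to 5 of 10 tumours and to no normal liver, and every Grow tumour with TMZ also had SAHA. The labels do not say which samples came from separate animals, so each p-value reflects only how far these samples scatter, which may in part be technical.

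Bile acid synthesis is the main route by which the liver disposes of cholesterol. The classic pathway starts with Cyp7a1 in the endoplasmic reticulum, and the alternative pathway starts with Cyp27a1 in mitochondria and continues through Cyp7b1. The genes are held in check by bile acids through the nuclear receptor FXR (Nr1h4), its target SHP (Nr0b2), and the FGF receptor Fgfr4 with its partner Klb. HNF4A and LRH-1 (Nr5a2) are among the factors that act on transcription of Cyp7a1 and Cyp8b1. Cyp7a1 follows a daily rhythm, and Cyp7b1 is higher in male than in female mouse liver.

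Some libraries stood apart. Library totals ran from 4707063 to 13394301 estimated counts. Grow 3 and Grow 4 differed by only 2.07 times the counting noise (median chi-square per gene over its expectation), against 5.20 to 81.1 times for the 26 other pairs of libraries in a group, so they are near copies, and the main results for tumours with TMZ are also given without them. Regress 1 had 0.591 CPM (counts-per-million of the TMM-scaled library size) of the fetal protein Afp, within the 0.299 to 4.51 CPM of normal liver, against 23.2 to 430 CPM in the other tumours. The labels give Normal 4 and Regress 2 one and the same code. Alb was present at 26000 CPM or more in all 14 libraries. The summed level of 15 hepatocyte genes was 104000 to 142000 CPM in normal liver. It was 65600 to 257000 CPM in tumours with TMZ and 234000 to 333000 CPM in tumours without it. The mean log2 CPM of the 15, in which Alb weighs less, overlapped, at 11.85 to 12.33, 10.98 to 12.32 and 11.59 to 12.51 in the same order. In bulk tissue, fewer cells of a type and less RNA per cell cannot be told apart.

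Of the 8 genes, 4 had an entry in the RefSeq promoter table (GRCm38.p6), and their 250 bases before the start were searched on both strands for CAAAGTCCA (an HNF4A-type motif), NCAAGGNCA (an LRH-1-type motif), AGGTCA (a nuclear receptor element) and CACGTG (the E-box bound by the clock). The windows of Cyp8b1 and Hsd3b7 are shown because Cyp8b1 was among the genes lowest in tumours without TMZ and Hsd3b7 was the 1 gene not called there. Capitals mark the HNF4A-type and LRH-1-type matches, which overlap in Cyp8b1. The Cyp8b1 window is chr9:121916306-121916555 on the minus strand and the Hsd3b7 window is chr7:127800359-127800608 on the plus strand, both printed 5′ to 3′ along the gene.
Cyp8b1: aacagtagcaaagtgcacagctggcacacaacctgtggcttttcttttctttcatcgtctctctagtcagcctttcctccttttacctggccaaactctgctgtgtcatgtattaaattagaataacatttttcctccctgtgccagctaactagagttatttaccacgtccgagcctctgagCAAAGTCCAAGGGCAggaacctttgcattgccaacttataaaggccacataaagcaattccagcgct
Hsd3b7: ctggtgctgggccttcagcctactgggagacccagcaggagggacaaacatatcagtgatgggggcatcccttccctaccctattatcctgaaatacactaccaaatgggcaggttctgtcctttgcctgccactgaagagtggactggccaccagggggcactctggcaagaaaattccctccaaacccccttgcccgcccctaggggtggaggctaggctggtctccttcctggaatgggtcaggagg
In Cyp8b1 the HNF4A-type match CAAAGTCCA lay 67 to 59 bases before the start and the LRH-1-type match CCAAGGGCA 61 to 53 bases before it. The same search found the HNF4A-type motif in 0.384% and the LRH-1-type motif in 5.51% of all 32851 windows of this length, and neither in the windows of Hsd3b7, Akr1d1 and Cyp27a1. AGGTCA (14.0% of windows) matched at 2 places in Akr1d1 and in none of the other 3, and CACGTG (6.02%) in none of the 4. A match describes letters only and is no evidence of binding.

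In normal liver the conjugating enzyme Slc27a5 and the dehydrogenase Hsd3b7 were the most abundant of the 8 per transcript length, and Cyp7a1 the least. Mean levels in CPM per kilobase of transcript were 276 ± 71.6 (SD, n = 4) for Slc27a5 and 198 ± 47.8 for Hsd3b7. Cyp7b1 stood at 165 ± 99.2, Cyp27a1 at 158 ± 45.3 and Baat at 136 ± 25.4, followed by Cyp8b1 at 92.2 ± 94.6, Akr1d1 at 69.3 ± 17.4 and Cyp7a1 at 52.1 ± 53.4. Apart from Slc27a5 and Hsd3b7, neighbours in this order differed by less than the larger SD of the pair. In the lowest tumour, Grow 1, the 8 genes summed to 207 CPM per kilobase, against 823 to 1650 in normal liver. Hsd3b7 and Slc27a5 made up 31.3% and 43.0% of that sum in Grow 1, while Cyp7a1 made up 0.0764%.

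**Figure D1:**
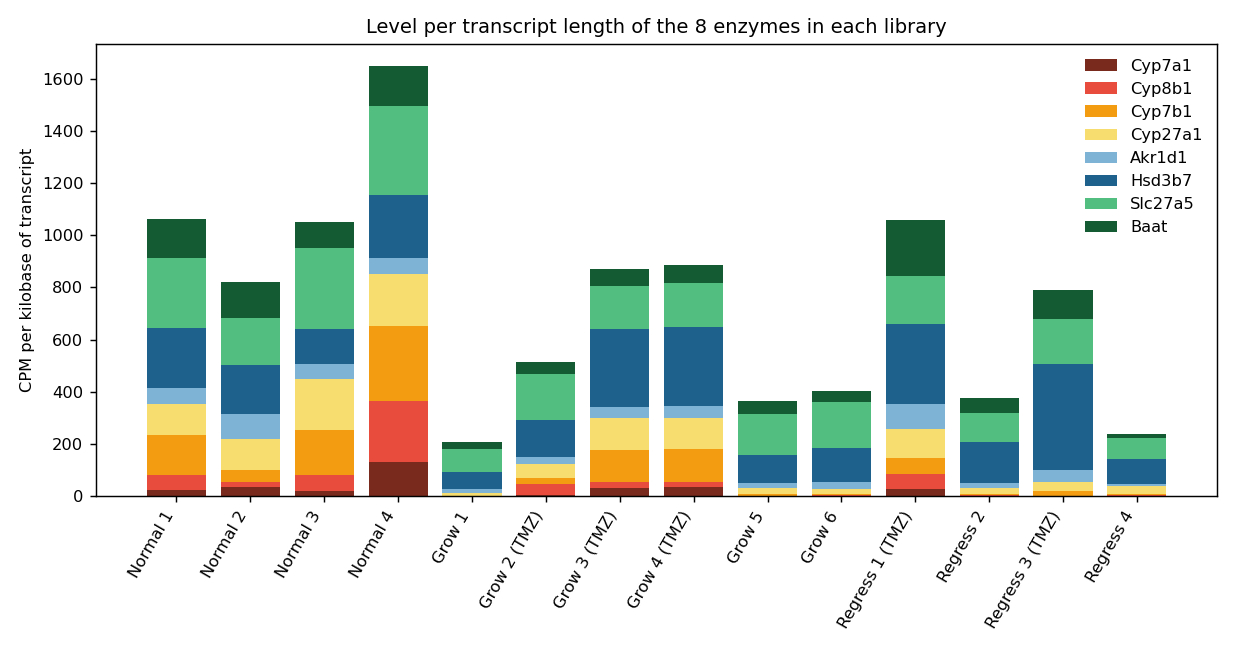
Stacked bars of the 8 enzymes in each of the 14 libraries, in CPM per kilobase of transcript, with TMZ exposure in brackets. The bars of normal liver reach 823 to 1650, and those of the 5 tumours without TMZ reach 207 to 401 and consist largely of Hsd3b7 and Slc27a5. In tumours with TMZ these genes are a large part too, from 28.8% and 17.5% in Regress 1 to 51.3% and 22% in Regress 3.

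The first comparison set tumours against normal liver, and it was made for tumours without and with TMZ separately. In tumours that had not received TMZ, 7 of the 8 enzymes fell and none rose: Cyp7a1, Cyp8b1, Cyp7b1, Cyp27a1, Akr1d1, Baat and Slc27a5. The falls were largest in Cyp7a1, Cyp8b1 and Cyp7b1, the hydroxylases that act on the sterol ring, at -6.86 ± 1.16 (SE), -5.91 ± 1.13 and -5.25 ± 0.85 on the log2 scale. In tumours that had received TMZ none of the 8 passed the test, with estimates from -1.70 to 0.59. Both comparisons use the same 4 normal livers, and edgeR's quasi-likelihood test, adjusted over 12307 features, called 4.27% of them lower and 10.0% in either direction in tumours without TMZ. In tumours with TMZ it called 0.0163% in either direction, none of them lower. There 2 members lay lower at an unadjusted p under 0.05, against 6.60% of all features, and DESeq2 and limma-voom called 0 members. These estimates rest on a few libraries. Without Grow 3 and 4, Cyp7a1, Cyp8b1 and Cyp7b1 stood at -2.48 ± 1.13, -1.39 ± 1.18 and -2.45 ± 0.87 in tumours with TMZ, and without Regress 1 as well at -4.50 ± 1.09, -3.98 ± 1.21 and -3.15 ± 0.98. edgeR still called no member there (lowest adjusted p = 0.0674, Cyp27a1), with 5 lower at an unadjusted p under 0.05, against 5.27% of all features.

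Cyp7a1, which catalyses the first and rate-limiting step of the classic pathway, stood at 91.1, 142, 86.5 and 549 CPM in Normal 1 to 4. Among tumours without TMZ it was at 0.659, 0 and 0.922 CPM in Grow 1, 5 and 6 and at 4.74 and 8.60 CPM in Regress 2 and 4. All 5 lay below every normal liver, 116-fold lower in the fit (edgeR adjusted p = 0.00558). The fitted fold ran from 50.6 (without Normal 4 and Regress 2) to 139 over the settings tried, and the group means were 217 ± 223 CPM (SD, n = 4) and 2.99 ± 3.65 CPM (n = 5). Among tumours with TMZ it was at 23.7, 137 and 142 CPM in Grow 2, 3 and 4 and at 120 and 3.86 CPM in Regress 1 and 3. Grow 3, Grow 4 and Regress 1 thus lay within the normal range, Grow 2 below it, and Regress 3 among the tumours without TMZ. Normal 4 and Regress 2, which share a sample code, held 549 and 4.74 CPM.

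Cyp8b1 adds the hydroxyl group that makes cholic acid and so sets the balance between cholic acid and the other primary bile acids. It stood at 116, 36.4, 116 and 451 CPM in Normal 1 to 4. It was at 1.25, 0.914 and 5.53 CPM in Grow 1, 5 and 6 and at 5.54 and 1.97 CPM in Regress 2 and 4, all below every normal liver (edgeR adjusted p = 0.00785), and the log2 estimate moved from -5.91 to -4.90 without Normal 4. With TMZ it was at 83.0, 43.2 and 42.6 CPM in Grow 2, 3 and 4 and at 107 and 1.54 CPM in Regress 1 and 3. Of the tumours with TMZ, Regress 3 alone lay below the normal range for this gene, and Grow 2, not Grow 3 or 4, was highest of the Grow tumours. The ratio of Cyp8b1 to Cyp7a1 per transcript length was accordingly 2.90 on the log2 scale in Grow 2, and -0.56 and -0.64 in Grow 3 and 4, against -0.86 to 1.52 in normal liver.

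Cyp7b1, the oxysterol hydroxylase of the alternative pathway, stood at 332, 98.6, 377 and 623 CPM in Normal 1 to 4, with Normal 2 lowest. It was at 1.10, 12.8 and 10.5 CPM in Grow 1, 5 and 6 and at 10.5 and 11.4 CPM in Regress 2 and 4, all below every normal liver and 38.1-fold lower in the fit (edgeR adjusted p = 0.00537). With TMZ it was at 47.1, 263 and 270 CPM in Grow 2, 3 and 4 and at 137 and 34.7 CPM in Regress 1 and 3. Every tumour with TMZ lay above every tumour without it, which was so for 0.780% of all features.

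Cyp27a1, which opens the alternative pathway and oxidises the sterol side chain in both, stood at 223, 228, 369 and 378 CPM in Normal 1 to 4. It was at 22.6, 44.9 and 36.2 CPM in Grow 1, 5 and 6 and at 40.9 and 55.3 CPM in Regress 2 and 4, a fall of -2.88 ± 0.41 (SE) on the log2 scale (edgeR adjusted p = 0.00475). With TMZ it was at 101, 231 and 227 CPM in Grow 2, 3 and 4 and at 209 and 65.9 CPM in Regress 1 and 3. The tumours with and without TMZ did not overlap for this gene either, and Cyp27a1 and Cyp7b1 were the 2 members of which this was true.

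Akr1d1, Baat and Slc27a5 also fell. Akr1d1, the reductase that gives the sterol ring its bent shape, ranged from 153 to 256 CPM in normal liver, from 22.6 to 69.9 CPM in tumours without TMZ and from 68.6 to 259 CPM in tumours with it (-2.08 ± 0.35 without TMZ, edgeR adjusted p = 0.00558). Baat, which joins bile acids to taurine or glycine, ranged from 192 to 299 CPM in normal liver, from 26.9 to 111 CPM without TMZ and from 84.7 to 417 CPM with it (-1.89 ± 0.39, edgeR adjusted p = 0.0111). Slc27a5, the ligase that activates bile acids for conjugation, ranged from 410 to 788 CPM in normal liver, from 190 to 404 CPM without TMZ and from 382 to 423 CPM with it (-1.24 ± 0.28, edgeR adjusted p = 0.0164). For these 3 genes too, every tumour without TMZ lay below every normal liver. Values not overlapping in this direction were found for 7 of the 8 members and for 5.90% of all features.

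Hsd3b7 was the exception, in that it was not called, although its estimate in tumours without TMZ also lay below 0. It oxidises the ring intermediates of both pathways, and it stood at 419, 346, 245 and 437 CPM in Normal 1 to 4. It was at 118, 196 and 241 CPM in Grow 1, 5 and 6 and at 290 and 175 CPM in Regress 2 and 4, which overlaps normal liver (-0.80 ± 0.33, edgeR adjusted p = 0.164). With TMZ it was at 257, 549 and 553 CPM in Grow 2, 3 and 4 and at 558 and 742 CPM in Regress 1 and 3, so that 4 of the 5 lay above every normal liver. Its estimate against normal liver there was 0.59 ± 0.34 (edgeR adjusted p = 0.499). Regress 3 combined the highest Hsd3b7 of the 14 libraries with Cyp7a1 and Cyp8b1 at 3.86 and 1.54 CPM.

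**Figure D2:**
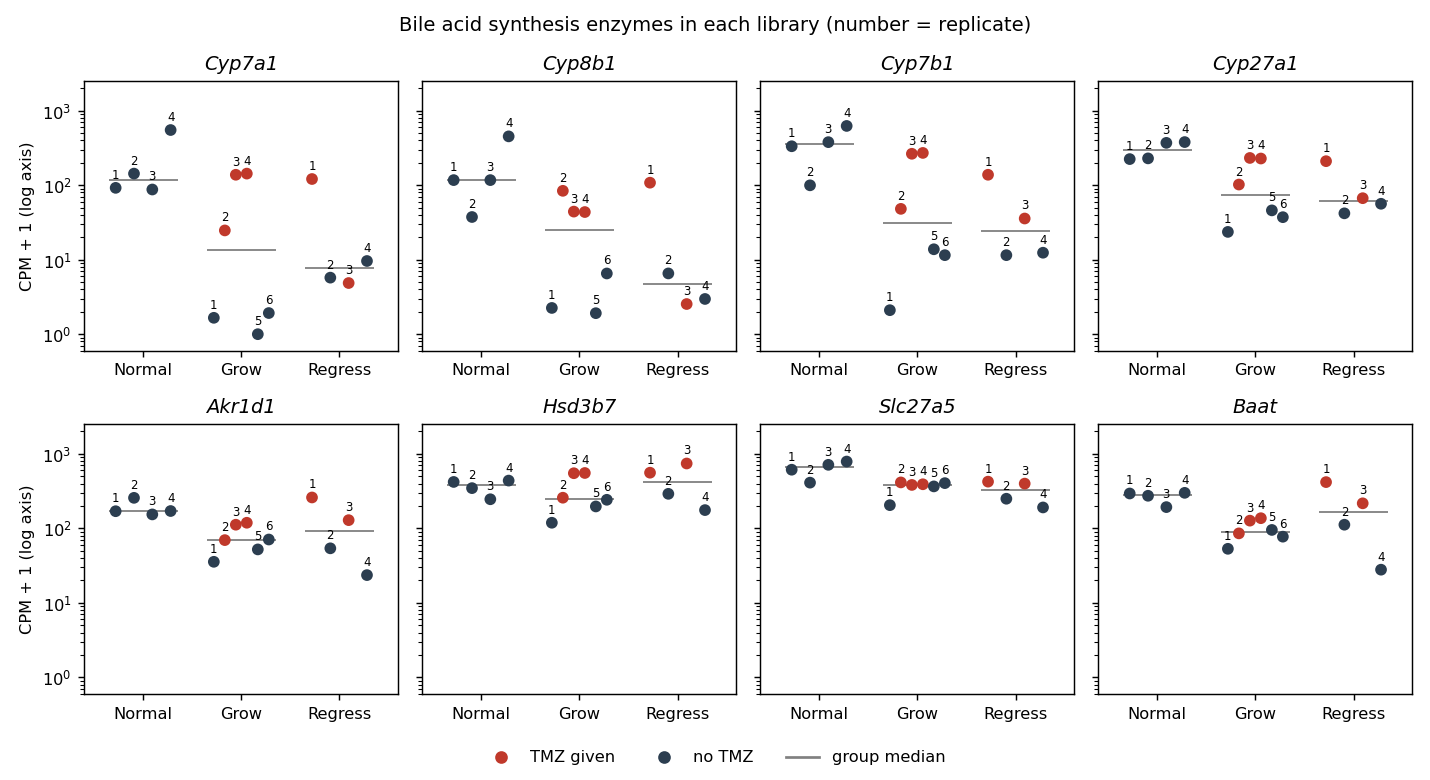
CPM of each enzyme in each library, plotted as CPM + 1 on a log axis, with the replicate number above each point, red points for libraries with TMZ and grey lines at group medians. Cyp7a1 in tumours without TMZ sits between 0 and 8.60 CPM, below the 86.5 CPM of the lowest normal liver, while Hsd3b7 overlaps between the groups.

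The count of 7 falls in tumours without TMZ was also 7 with DESeq2, which called 6.60% of all features lower, and with limma-voom, which called 3.82%. It was 5 (of all features 2.35%) without Regress 4, the library with the most Col1a1, a fibrillar collagen (186 CPM, the next being 9.59 CPM), and 5 (of all features 2.52%) without Normal 4 and Regress 2 together.

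When all 10 tumours were pooled, none of the 8 genes was called against normal liver, although 7 had estimates below 0. Against normal liver the pooled estimates were -2.62 ± 1.11 (SE) for Cyp8b1, -2.38 ± 1.27 for Cyp7a1 and -2.36 ± 0.99 for Cyp7b1, with edgeR adjusted p of 0.222, 0.364 and 0.220. Those of Cyp27a1 (-1.56 ± 0.56), Akr1d1 (-1.0 ± 0.47), Baat (-0.97 ± 0.46) and Slc27a5 (-0.91 ± 0.27) had adjusted p from 0.0838 to 0.286, and Hsd3b7 stood at 0.05 ± 0.44. At an unadjusted p under 0.05, 5 members lay lower, against 8.01% of all features, and at the adjusted threshold 2.32% of all features were called in either direction and 0.731% lower. The median of the 8 was -1.28, against 0.01 over all features. DESeq2 called 1 member and 2.68% of all features lower, limma-voom 0 and 0.666%. Without the near copies Grow 3 and 4, 2 members and 1.36% of all features were called lower, the members being Cyp27a1 (-2.08, edgeR adjusted p = 0.0261) and Cyp7b1 (-3.57, adjusted p = 0.0315). Without Regress 1, 3 members and 3.11% of all features were called lower, the members being Cyp8b1 (-4.25, edgeR adjusted p = 0.0264), Cyp27a1 (-1.96, adjusted p = 0.0419) and Slc27a5 (-1.0, adjusted p = 0.0409). Without all 3 libraries, 7 members and 4.51% of all features were called lower.

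The labelled groups Grow and Regress were then compared with the same 4 normal livers and with each other. In Grow against Normal none of the 8 passed, where 1.76% of features were called in either direction and 0.642% lower. There Akr1d1 and Baat lay lower in every Grow tumour than in any normal liver, as did 4.27% of all features. In Regress against Normal none passed either, where 0.0244% of features were called in either direction and 0% lower. There Cyp27a1 alone lay lower in every Regress tumour, as did 3.20% of all features. At an unadjusted p under 0.05, 4 members lay lower in Grow and 3 in Regress, against 7.08% and 6.60% of all features. Regress against Grow gave estimates from -1.06 ± 1.18 (Cyp7b1) to 1.02 ± 0.51 (Baat, edgeR adjusted p = 0.491), no member at an unadjusted p under 0.05 (3.09% of features were lower and 6.91% higher at that level) and no call among all 12307 features (1230 at an unadjusted p under 0.05, 31 called by DESeq2 and 0 by limma-voom). The 2 labelled groups overlapped for each of the 8 genes, while 0.544% of all features were lower and 0.374% higher in every Regress than in every Grow tumour. Standard errors of up to 1.49 in this comparison leave room for large differences in either direction.

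**Figure D3:**
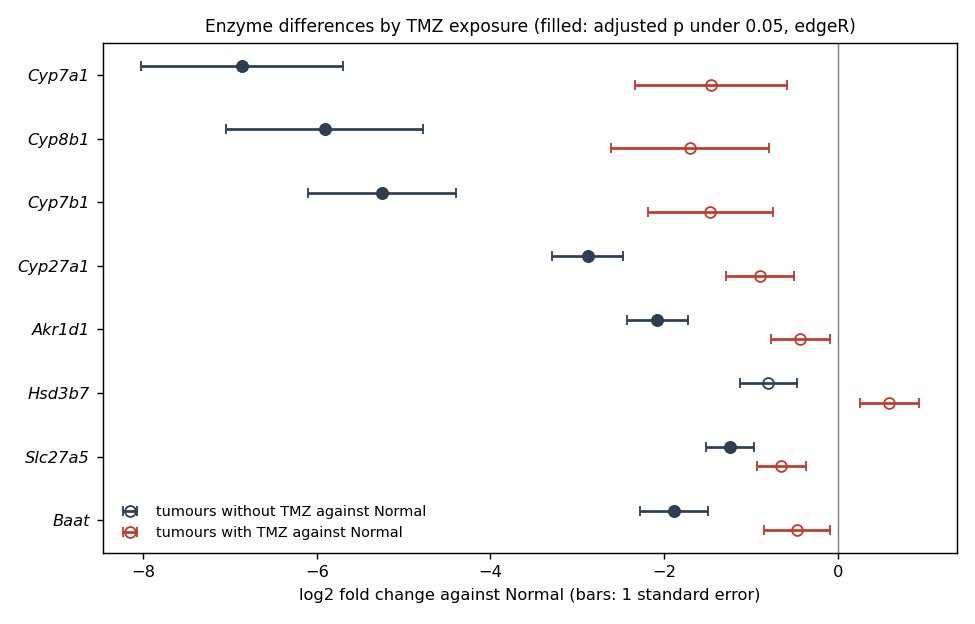
Log2 fold change against normal liver for each enzyme, in tumours without TMZ (dark) and with TMZ (red), with bars of 1 standard error and filled points for an edgeR adjusted p under 0.05. The dark points run from -6.86 for Cyp7a1 to -0.80 for Hsd3b7 and 7 of 8 are filled, while the red points, fitted with all 5 tumours that had TMZ, run from -1.70 to 0.59 and none is filled. Without Grow 3, Grow 4 and Regress 1 the red Cyp7a1 point would stand at -4.50.

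Whether the 2 sets of tumours differed from each other was tested with TMZ as a term beside the group, and no member passed. The estimates all lay above 0: 5.60 ± 1.26 (SE) for Cyp7a1, 4.27 ± 0.96 for Cyp8b1, 3.95 ± 0.78 for Cyp7b1, 2.07 ± 0.39 for Cyp27a1, 1.5 ± 0.38 for Akr1d1, 1.37 ± 0.31 for Hsd3b7, 1.26 ± 0.42 for Baat and 0.53 ± 0.27 for Slc27a5. The lowest edgeR adjusted p were 0.0668 for Cyp27a1 and 0.0691 for Cyp7b1, and Cyp7a1, Cyp8b1 and Hsd3b7 each had 0.0821. edgeR called 0 of 12307 features (0%), with 1705 at an unadjusted p under 0.05, while DESeq2 called 465 and limma-voom 2. Of the members, 7 had an unadjusted p under 0.05 with a higher estimate, against 6.32% of all features, and DESeq2 called 6 of them higher, as it did 2.23% of all features. Their median estimate was 1.78, against -0.03 over all features.

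The calls for TMZ depended on the tool and on the libraries kept. Without Grow 2, edgeR called 6 members and 2.41% of all features higher with TMZ, and without Regress 3 it called 4 members and 0.556%, whereas without the near copies Grow 3 and 4 the adjusted p was 0.625 or more for every member. In that last fit the estimates remained above 0, at 4.14 ± 1.02 for Cyp7a1, 4.41 ± 1.09 for Cyp8b1 and 2.79 ± 0.73 for Cyp7b1. Without Regress 1 as well they were 3.52 ± 1.40, 3.51 ± 1.39 and 2.16 ± 0.74, with adjusted p = 1 by edgeR. With SAHA as a further term they were 4.24 ± 1.37, 3.64 ± 1.12 and 3.46 ± 0.97 (edgeR adjusted p = 0.426, 0.426 and 0.415). Grow 6, the 1 tumour with SAHA alone, held 0.922 CPM of Cyp7a1, 5.53 CPM of Cyp8b1 and 10.5 CPM of Cyp7b1, within the range of the other tumours without TMZ for each.

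Within the Grow tumours, the estimate for TMZ given with SAHA was 7.59 ± 1.48 for Cyp7a1, and within the Regress tumours that for TMZ alone was 3.20 ± 1.43 (edgeR adjusted p = 0.134 and 0.322). edgeR called no member in either group, while DESeq2 called 4 in Grow (1.45% of all features higher) and 2 in Regress (1.11%) and limma-voom 0 in both. Leaving out Grow 3 and 4 leaves Grow 2 as the 1 Grow tumour with TMZ and assumes that it varies like the others. The Grow estimates were then 5.46 ± 1.53 for Cyp7a1, 5.07 ± 1.57 for Cyp8b1 and 2.53 ± 1.04 for Cyp7b1. Leaving out Regress 1 as well leaves Regress 3 as the 1 Regress tumour with TMZ. The Regress estimates for Cyp7a1 and Cyp8b1 then changed sign, to -0.80 ± 1.38 and -1.25 ± 1.74, while the other 6 stayed above 0. At an unadjusted p under 0.05, 6 members were higher in Grow, against 4.31% of all features (4 without Grow 3 and 4, against 0.671%), and 7 in Regress, against 5.79%. For the difference between the 2 estimates, edgeR called 0 of 12307 features (866 at an unadjusted p under 0.05; DESeq2 72 and limma-voom 0). For Cyp7a1 it was -4.39 ± 1.90 (edgeR adjusted p = 0.705), the 1 member lower at an unadjusted p under 0.05, where 4.83% of features were. In Grow, 5 members did not overlap between tumours with and without TMZ, all higher with it, as were 6.81% of all features. In Regress, 6 did not overlap, where 18.2% of all features were higher with TMZ in this way.

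Genes expressed around the central vein, the zone in which Cyp7a1 is normally highest, were low in many of the same libraries. The mean log2 CPM of 12 pericentral genes was 5.21 to 6.28 in normal liver, 8.76 in both Grow 3 and 4, 5.30 in Regress 1, 4.68 in Grow 2 and 4.55 in Regress 3. It was 2.19, 2.78 and 3.07 in Grow 1, 5 and 6, 2.66 in Regress 2 and 6.35 in Regress 4. Regress 4 thus had pericentral genes just above the normal range beside 8.60 CPM of Cyp7a1 and 11.4 CPM of Cyp7b1. In tumours without TMZ, 3 of the 12 genes fell, the aminotransferase Oat (-4.03 ± 0.80, edgeR adjusted p = 0.0089), Cyp2e1 (-3.87 ± 0.78, adjusted p = 0.0098) and Cyp1a2 (-3.21 ± 0.83, adjusted p = 0.0286), and the median was -1.60. The TMZ estimate of this list among all tumours had a median of 3.68, with 0 called and all 12 above 0, and without Grow 3 and 4 a median of 0.64 with 8 above 0. Within Regress the median was -0.51 with 7 of the 12 below 0, while all 8 enzymes had estimates above 0 there. Without Grow 3, Grow 4 and Regress 1, 9 of the 12 and 2 of the 8 enzymes were below 0 within Regress. Within Grow without Grow 3 and 4, all 12 were above 0 (median 1.84), as were all 8 enzymes (median 0.99). Each of these omissions leaves 1 tumour with TMZ in the group. The part of the pericentral genes in the result for bile acid enzymes was not tested.

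**Figure D4:**
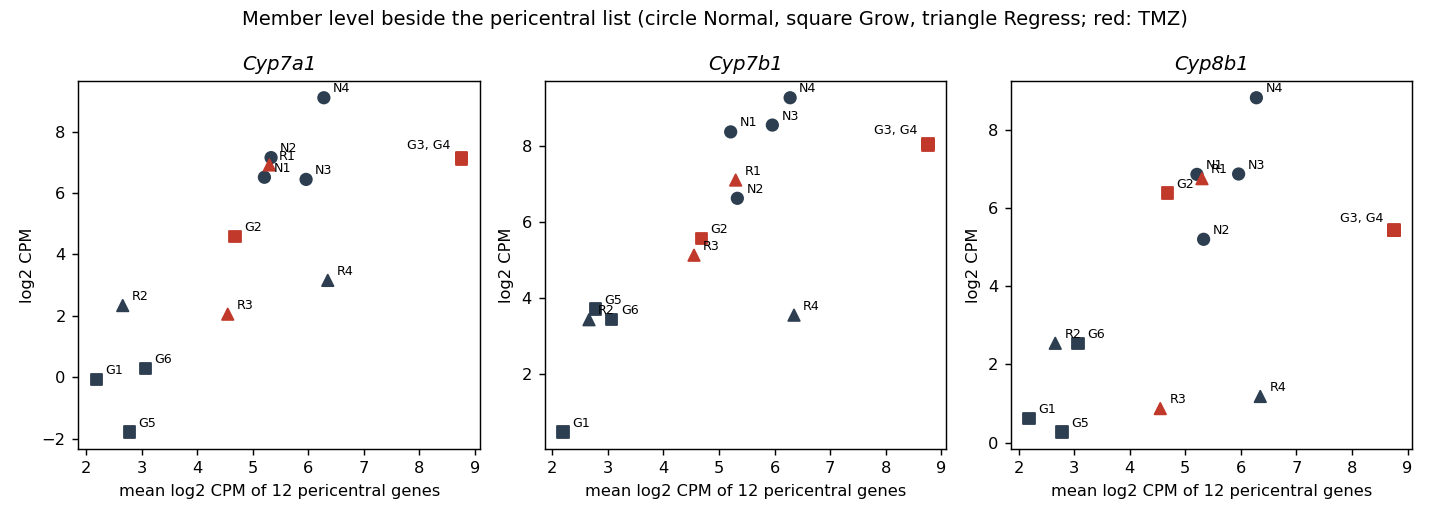
Log2 CPM of Cyp7a1, Cyp7b1 and Cyp8b1 (vertical axes) against the mean log2 CPM of 12 pericentral genes (horizontal axes) in 14 libraries, with circles for Normal, squares for Grow, triangles for Regress and red for TMZ. Grow 3 and 4 sit at 8.76 on the horizontal axis, and Regress 4 at 6.35 with low levels of all 3 enzymes.

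Likeness of profile over the 14 libraries was measured as the root mean square difference of centred log2 CPM, and the nearest genes outside the 8 were listed for each member. For Cyp7b1 they were Cyp2c29 (0.70), Cyp2c50 (0.73) and Cyp2e1 (0.89), and for Cyp7a1 Cyp2c37 (1.05), 9130409I23Rik (1.20) and Cyp2c54 (1.24). The Cyp2c genes have closely related copies between which estimated counts can be split. Closest to Cyp8b1 were Susd4 (0.87), 9130409I23Rik (1.20) and Lrit2 (1.28), and closest to Cyp27a1 Acsm5 (0.29), the hepatic lipase Lipc (0.41) and Acsm1 (0.46). Akr1d1 and Baat shared Pecr (0.31 and 0.28) and Apol9b (0.32 and 0.30) among their 3 nearest genes outside the 8, beside Fahd1 (0.29) for Akr1d1 and Apol7a (0.33) for Baat. Nearest to Slc27a5 were Sec14l2, Asgr2 (both 0.19) and Lcat (0.20), and near to Hsd3b7 were Dipk1a (0.31) and Aamdc (0.32). Members were near to each other in some pairs and far in others, in a measure that also grows with how widely a gene varies. Among the 12306 other features, Baat ranked 2 in nearness to Akr1d1 (0.31), and Cyp8b1 ranked 8 in nearness to Cyp7a1 (1.42). Cyp7a1 ranked 12249 in nearness to Hsd3b7 (2.86), but Hsd3b7 ranked 592 in nearness to Cyp7a1 at the same distance. The spread over the 14 libraries was 3.35 on the log2 scale for Cyp7a1 and 0.76 for Hsd3b7.

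Of 14 further genes of bile acid synthesis, 13 were tested, and in tumours without TMZ 2 fell and 1 rose (median -0.59, against -0.02 over all features). Cyp2c70, which makes the muricholic acids of mice, fell from 1380 ± 450 CPM (SD, n = 4) in normal liver to 476 ± 138 CPM (n = 5) (log2 -1.64, edgeR adjusted p = 0.0141). Scp2, whose product includes the thiolase that shortens the side chain, fell from 3520 ± 569 to 1600 ± 425 CPM (edgeR adjusted p = 0.0254). Cyp39a1, a hydroxylase of a minor oxysterol route, went the other way, from 12.7 ± 6.30 to 67.4 ± 9.75 CPM (edgeR adjusted p = 0.0142). With TMZ it stood at 13.4 to 63.3 CPM and none of the 13 was called. In all tumours together none was called, the lowest p being those of Cyp39a1 (1.99 ± 0.54, edgeR adjusted p = 0.0664), Scp2 (-0.86 ± 0.28, adjusted p = 0.112) and the brain-type cholesterol hydroxylase Cyp46a1 (-2.37 ± 0.90, adjusted p = 0.172).

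Of 19 genes of bile acid feedback and control, 17 were tested, and 3 fell and none rose in tumours without TMZ (median -0.44, against -0.02 over all features). The bile acid receptor Nr1h4 stood at 95.2 ± 21.7 CPM in normal liver (SD, n = 4) and 41.7 ± 17.4 CPM in tumours without TMZ (n = 5) (log2 -1.17, edgeR adjusted p = 0.0223). Nr1i3, the xenobiotic receptor CAR, fell from 100.0 ± 42.1 to 12.5 ± 10.1 CPM (edgeR adjusted p = 0.00862), and Mafg, a transcriptional repressor of bile acid genes, by -1.10 ± 0.30 (edgeR adjusted p = 0.0378). The repressor Nr0b2 was at 15.3 to 21.4 CPM in normal liver and 8.35 to 67.5 CPM without TMZ (0.43 ± 0.45, edgeR adjusted p = 0.652). Hnf4a (-0.03 ± 0.30) and Nr5a2 (-0.41 ± 0.26), the factors whose motif letters stand in the Cyp8b1 window, did not pass (edgeR adjusted p = 0.974 and 0.398). In Grow against Normal, Nr1h4 was the 1 gene of the list called (-1.25 ± 0.29, edgeR adjusted p = 0.0467). In all tumours together none was called, with Nr1i2 (-0.66), Klb (-0.99) and Nr1h4 (-0.85) lowest in p (edgeR adjusted p from 0.0753 to 0.0981).

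Among 12 tested genes of bile acid and sterol transport, 4 fell in tumours without TMZ (median -0.89): Slc10a1, Slco1b2, Slco1a1 and Slco1a4, all uptake carriers of the sinusoidal membrane. Slc10a1, which takes up conjugated bile acids, stood at 604 ± 287 CPM in normal liver (SD, n = 4) and 153 ± 56.6 CPM in those tumours (n = 5; edgeR adjusted p = 0.0125). In tumours with TMZ it stood at 225 ± 96.0 CPM (n = 5; edgeR adjusted p = 0.199).

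Lists for the clock and for other cell types were counted in the same comparison. Of 15 clock and clock-output genes, 2 rose and 3 fell in tumours without TMZ, among them Usp2 (-3.67 ± 0.65, edgeR adjusted p = 0.00608), Hlf (-1.61 ± 0.31, adjusted p = 0.00808) and Npas2 (5.52 ± 1.38, adjusted p = 0.0251). The hour of tissue collection is not given in the sources used here, and the part of the clock in the Cyp7a1 result was not tested. Of 13 periportal genes 1 fell, Asl (-1.63 ± 0.32, edgeR adjusted p = 0.00876), and of 15 hepatocyte genes none was called. The summed level of 6 tested cholangiocyte genes was 24.4 to 38.4 CPM in normal liver, 260 to 624 CPM without TMZ and 36 to 346 CPM with it, and 2 rose without TMZ, Tspan8 and Spp1. Krt19 ranged from 0.299 to 1.05, 0.395 to 2.54 and 0.197 to 34.7 CPM in normal liver, without and with TMZ, and Krt7, Cftr and Sctr were too low to be tested. Summed over 11 Kupffer cell genes the levels were 418 to 1180, 112 to 572 and 413 to 984 CPM in the same order, and 3 fell without TMZ, Clec4f, Cd163 and Vsig4. Summed over 11 stellate cell and matrix genes they were 228 to 378, 142 to 1310 and 114 to 365 CPM, the highest being Regress 4, and 5 rose and 2 fell without TMZ. Of 10 endothelial genes 3 rose without TMZ, Lyve1 (3.30 ± 0.57, edgeR adjusted p = 0.00558), Cd34 (3.73 ± 0.84, adjusted p = 0.0158) and Pecam1 (1.15 ± 0.30, adjusted p = 0.0309). Of 10 proliferation genes 8 rose without TMZ, among them the cell cycle kinase Cdk1 (3.35 ± 0.58, edgeR adjusted p = 0.00569), and their summed level was 4.07 to 7.37, 7.32 to 75.2 and 12.6 to 52.5 CPM in the same order. In tumours with TMZ none of these 10 was called, while their summed level lay above that of every normal liver in each tumour. The part of these cells in the enzyme results was not tested.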

How the data were processed

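Snap-frozen liver and tumour gave RNA (RNeasy columns) for Illumina TruSeq libraries, per the labels' protocols. The kit does not mark strand. Salmon 0.3.1, edgeR 3.14.0 and mm9 are listed, without roles, per the submitters' processing notes. The authors made the deposited estimated counts, one per RefSeq transcript (35230 rows), from the reads, per the file headers. 1 further column holds no values and was not used. Rows were named through RefSeq (GRCm38.p6, 26081 rows) or GENCODE M21 (144 rows), summed per gene and rounded, with 9005 unnamed rows kept as features (3.52% to 12.05% of a library). The 8 members had 9 rows, and lengths came from GENCODE M21.

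edgeR 4.0.16 (R 4.3.3) with TMM, filterByExpr and robust quasi-likelihood tests was fitted to all 14 libraries, with 3 groups, with TMZ as a further term, or with 5 cells of group and TMZ. Estimates for all tumours, and for tumours with or without TMZ, are means of the Grow and Regress effects with equal weight. Calls are at a Benjamini-Hochberg adjusted p under 0.05 over all 12307 features. Standard errors of edgeR estimates were derived as the absolute log2 fold change over the square root of the quasi-likelihood F, and are approximate. The code was tested on simulated counts. Log2 CPM used a prior count of 2, and ratios added 0.1 CPM. DESeq2 1.42.0 and limma-voom 3.58.1 were alternatives. Genes named were the 8 members, up to 4 called genes of a list, the 3 of lowest p among further enzymes and regulators, the 3 nearest profiles (1 of those of Hsd3b7 is not reported here), and Afp, Alb and Slc10a1. Col1a1 in Regress 4, Krt19, Nr0b2, Hnf4a and Nr5a2 were named after their values were seen. Members, lists and tests were chosen with earlier results of these data known.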

Additional observations from a re-analysis of the deposited data

Results flagged for a closer look

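Of 24 sets of values (8 genes in 3 groups), 6 had a highest or lowest library whose gap to the next was large for the group's range. The rule's rate of about 1 in 20 is for unrelated sets of like samples. The 24 sets share libraries, and Grow and Regress mix tumours with and without TMZ. That rate therefore cannot tell whether 6 is more than chance gives. Regress 1, which received TMZ, accounted for 3 of the 6. It stood at 120 CPM of Cyp7a1 against 8.60 CPM in the next Regress library, at 107 CPM of Cyp8b1 against 5.54 CPM, and at 209 CPM of Cyp27a1 against 65.9 CPM. In normal liver, Cyp7a1 stood at 549 CPM in Normal 4 against 142 CPM in the next, and Akr1d1 at 256 CPM in Normal 2 against 170 CPM. Among Grow tumours, Slc27a5 was lowest in Grow 1 at 204 CPM, against 365 CPM in the next.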

How the results depend on the processing

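Of 1408 values recomputed over 28 settings, 1315 kept direction and side of the threshold, 51 came to pass it, 5 ceased to and 37 changed sign. The joint omissions without Grow 3 and 4, with or without Regress 1, and the alternatives for tumours split by TMZ were chosen after seeing the data. In tumours without TMZ, 5 to 7 members were called lower under every setting run, and Cyp8b1 and Slc27a5 were those lost. For all tumours against Normal the members called were 1 with DESeq2, 7 with tumours without TMZ only, 2 without Grow 3 and 4, 7 without Grow 3, Grow 4 and Regress 1, and 0 to 3 leaving out 1 library (3 without Regress 1). Over all features the same leave-one-out counts ran from 0 (without Normal 3) to 992 (without Regress 1), DESeq2 called 1056 and limma-voom 127, against 285. The counts that follow stand without the share of all features under the same setting, except where it is given above. They therefore do not show whether the enzymes differ from other features. Grow against Normal gave 2 and 5 in the same 2 joint omissions and 0 to 1 leaving out 1 library (1 without Regress 4). Regress against Normal gave 2 without Grow 3, Grow 4 and Regress 1, and Regress against Grow 0 to 1 (1 without Regress 4). TMZ exposure gave 6 with DESeq2, 4 with the length trend removed and 0 to 6 leaving out 1 library (6 without Grow 2, 4 without Regress 3). The TMZ effect in Grow gave 4 with DESeq2 and 0 to 4 (4 without Grow 2), that in Regress 2 and 0 to 1 (1 without Regress 2).

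Sign changes, on the log2 scale, were of estimates that passed no test. Hsd3b7 in all tumours against Normal was -0.10 with limma-voom, -0.06 with Grow 3 and 4 summed, -0.80 in tumours without TMZ, -0.23 without Grow 3 and 4, -0.34 without Regress 1 as well, and -0.13 to 0.19 leaving out 1 library. Leaving out 1 library, Hsd3b7 was -0.41 to 0.02 in Grow and -0.09 to 0.55 in Regress against Normal. In Regress against Grow, Cyp8b1 was 0.09 with DESeq2 and with RLE scaling, 0.03 without the count filter, 0.12 with Grow 3 and 4 summed, 0.33 without Normal 4 and Regress 2, 0.41 without Grow 3 and 4, and -3.27 to 0.64 leaving out 1 library. Cyp7a1 was 1.37 with limma-voom, 0.04 with Grow 3 and 4 summed, 2.50 without them, and -3.12 to 0.08 leaving out 1. Cyp27a1 was 0.09, 0.90 and -1.03 to 0.10 in the same order after limma-voom, and 0.08 without Regress 1 too, as was Cyp7b1, which was 1.5 without Grow 3 and 4. Akr1d1 was -0.15 to 0.96 leaving out 1. The cause of these changes was not tested.

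With the replicate number as a replicate block, 0 members were called in each of the 5 comparisons, and calls over all features went from 285, 217 and 3 (all tumours, Grow and Regress against Normal) to 0. Same-numbered samples mostly did not deviate together (2 of 12 pairs over 0.1, r from -0.52 to 0.20). With both other groups pooled, none correlated best with its own number. Within a single other group, Regress 2 correlated best with Normal 2 (r = 0.16) and Regress 3 with Grow 3 (r = 0.20). Low counts limit the estimate for Cyp7a1 in tumours without TMZ, at 0 estimated counts in Grow 5 and 9 in Grow 1. These were the deepest libraries, with 9301296 and 13394301 estimated counts in total.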
